A study of Petromyzon marinus with 21 samples.

Results

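RNA of adult testes of the sea lamprey (Petromyzon marinus, a jawless vertebrate) was read in 3 of the 21 lanes of a NanoString nCounter experiment, and the other 18 lanes held whole embryos. The testes lanes were chosen by their column names, which carry the word testes and the numbers 1 to 3. The design text calls them technical replicates, so they stand for 1 biological sample, and how many animals gave it is not stated in the labels. The embryo lanes cover 6 ages, with 3 biological samples for each of D1 and D2, then D2.5 and D3, then D4 and D5 (days after fertilization), from eggs kept at 18 °C in diluted Holfretter's solution. The labels of the testes samples repeat the handling of the embryos and say nothing of the adults beyond their tissue. No agent, mutation or transgene is named for either tissue. On the nCounter, probes with a colour code bind to their transcripts, and the codes are counted with no amplification step. The panel held 43 target probes (24 of them without a gene name in the file), 6 reference probes, 8 negative controls for sequences absent from the sample and 6 positive controls.

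The testis is the organ in which male germ cells pass through meiosis, the division that pairs and recombines chromosomes. Synaptonemal complex protein 1 (SYCP1) joins the paired chromosomes, the helicase HFM1 acts in meiotic crossing over, and Piwi proteins silence transposons in the germ line. In lampreys the germ line also keeps DNA that the somatic cells of the embryo discard early in development. Whether the target probes were chosen for that reason is not stated in the labels.

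With 1 biological sample of testes, no test between testes and embryos was made, and differences are given by size. An exact permutation of 1 sample against 18 could not go below p = 0.105 (two-sided). The names of the testes lanes also begin with a number of their own that reads as a date. It was taken here as a run of the instrument, which the labels do not state. Tissue and such a run cannot be told apart. The 3 testes lanes differed from each other in composition by no more than sampling noise. Their target totals, 473907, 462058 and 450972 counts, differed by more than counting error. Over the 49 target and reference probes the chi-square per degree of freedom was 0.942 to 1.28 for the testes pairs, against at least 2.18 between lanes of the same embryo age. The coefficient of variation of a target probe's raw count over the testes lanes was 2.88% in the median and at most 11.2%, for comp282841. This variation also holds the difference in totals. These lanes were therefore summed and counted as 1 sample, and confidence intervals on their shares (exact binomial, 95%) cover counting error only.

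Each lane's background was set at the mean + 2 SD of its negative controls. It was 127 to 136 counts in testes and 7.78 to 23.2 in embryos. All 8 negative controls were higher in every testes lane than in any embryo lane, with means of 60.0 to 63.5 counts against 3.00 to 8.13. The faintest positive control, POS_F, had 131 to 135 counts in testes and 24 to 57 in embryos, whereas the brightest, POS_A, overlapped (18451 to 19969 against 13718 to 20909). The geometric mean of the positive controls did not overlap, at 1062 to 1088 in testes and 629 to 949 in embryos. The part of this raised background in the low testes values below was not tested. In testes 42 of the 43 targets exceeded the background in all 3 lanes, and the exception was the unannotated comp243002 (69, 65 and 56 counts). Embryo lanes had between 3 and 40 target probes above background. Of the probes named for germ-line genes, HFM1, all 3 for SYCP1 and Piwi-1 were above background in every testes lane, and Piwi-2 was not.

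The testes lanes held 473907, 462058 and 450972 target counts, and embryo lanes had 504 at the lowest, 2529 in the median and 15415 at the highest, in D3 replicate 3. The mean of testes was thus 29.99-fold above that lane, and 46.4-fold above the highest of the others when it was left out. It was 18.3-fold scaled by the positive controls, 16.6-fold per summed reference count and 6.46-fold per count of HCFC-1. The summed reference class did not separate the tissues in this way, with 2207 to 2358 counts in testes and 206 to 6059 in embryos. Its single probes did not behave alike. In raw counts Piwi-1, HCFC-1, EF1A_B (below background in embryos) and Piwi-2 (below background in testes) were above every embryo lane. EF1A_A was below every embryo lane, and RPS9 lay inside the embryo range. How much RNA was loaded is not stated in the labels. On raw counts, 40 of the 43 target probes (93% of those compared) were at least 4-fold higher in testes than in every embryo lane, and 36 when each lane was divided by its count of HCFC-1. The median ratio to the highest embryo lane was 31.6. The mean of the negative controls was itself 60.0 to 63.5 counts in testes and at most 8.13 in embryos. With this mean subtracted from each lane, the number of targets at least 4-fold higher stayed at 40. In such whole-tissue RNA, more cells of a type and more RNA per cell cannot be told apart. The 3 probes outside that count were aspartate aminotransferase, the SYCP1 probe comp292635_9 and comp243002, which was below background in testes.

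Shares within a lane remove the total and leave the composition of the panel. A few unannotated transcripts made up most of the testes signal. comp293992 had 90297, 87786 and 85665 counts, 19.02% of the testes target total (18.95 to 19.08%). comp292315 followed with 80370, 78252 and 76120 counts, or 16.9%. comp292169 had 43593, 42792 and 41668 counts, or 9.23%. These 3 led all testes lanes in the same order. The remaining places down to the tenth were held by comp285297_12 (7.60%), comp293931 (7.18%), comp293924 (3.84%), comp293073_4 (2.92%), comp290695 (2.45%), comp293073 (2.38%) and comp284969 (2.02%). Of these, only comp285297_12 carries a name, that of an apoptosis inhibitor with baculoviral IAP repeats. The 6 leading probes held 63.8% of the testes total and the 10 leading ones 73.5%.

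**Figure D1:**
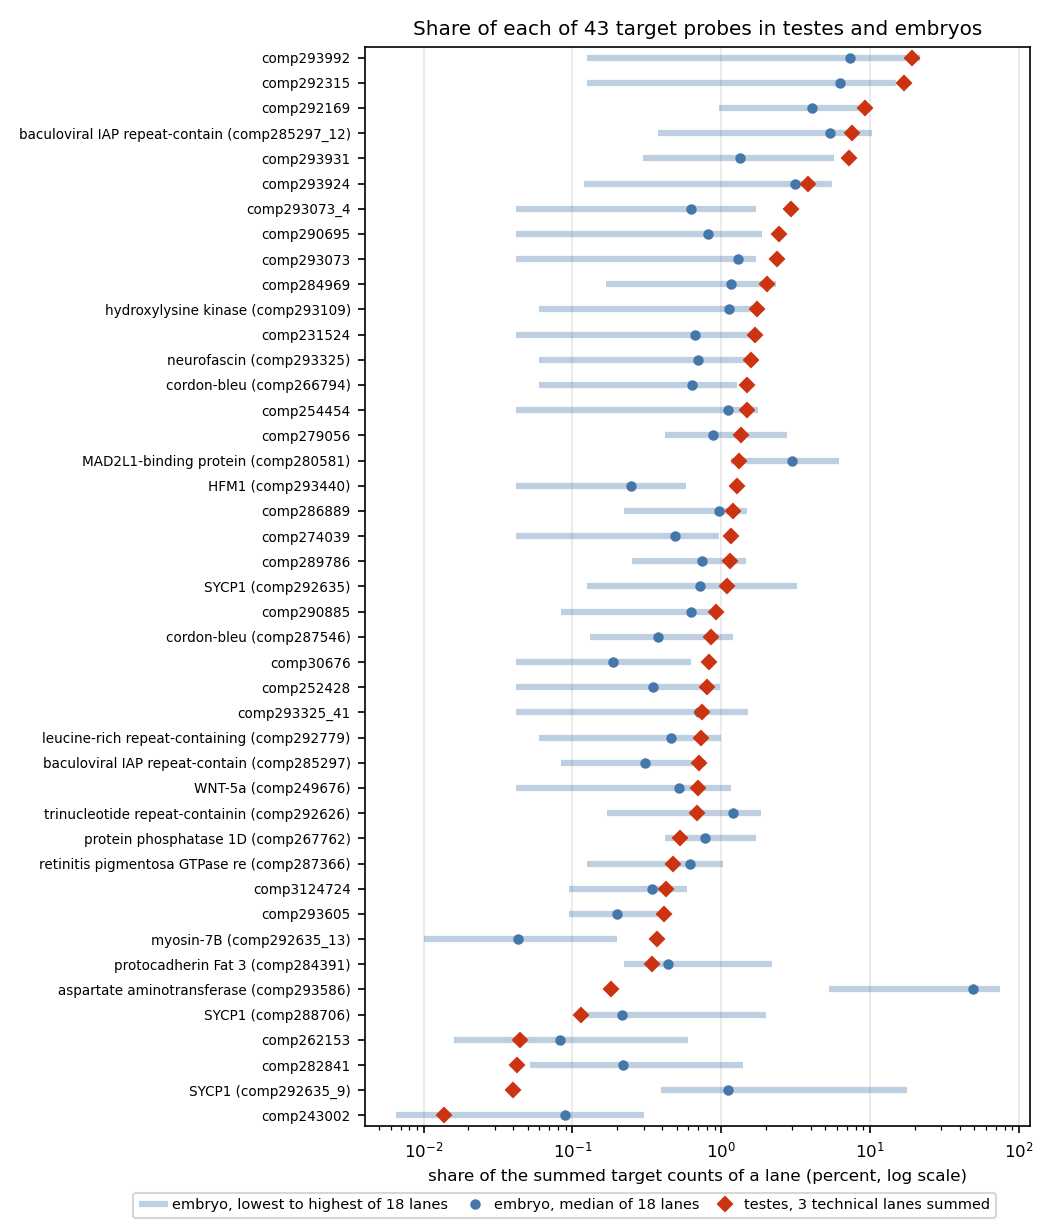
Share of each of the 43 target probes in the summed target counts of a lane, in percent on a log axis, ordered by the testes share. Red diamonds are the 3 testes lanes summed, blue bars run from the lowest to the highest of 18 embryo lanes and blue points are their median. Of the 43 diamonds, 13 lie to the right of the embryo bar, 27 within it and 3 to the left, where aspartate aminotransferase and the SYCP1 probe comp292635_9 are far from theirs.

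The same 10 transcripts held between 3.27% and 69.1% of the target total in embryo lanes, with a median of 29.8%. Between 1 and 8 of them were among the 10 leading probes of an embryo lane. comp293992 had 0.126% at the lowest, 7.37% in the median and 21.6% at the highest in embryos, so that its testes share lay inside the embryo range, under D3 replicate 3 alone. comp292315 had 0.126, 6.24 and 14.9%, and its testes share was 1.13 times the highest lane, or 0.909 times with aspartate aminotransferase left out of the totals. The 24 unannotated probes together made up 78.2% of the testes total and 5.91 to 70.6% of the embryo totals. With aspartate aminotransferase left out of the totals these values were 78.3% in testes and 21.7 to 74.6% in embryos, with a median of 61.1%, so the groups did not overlap on either total. On the full total, such a gap was common among the summed shares. The cordon-bleu and myosin-7B probes held 2.71 to 2.72% in testes and at most 1.80% in embryos. Cell cycle and chromatin regulators held 2.51 to 2.53% against at least 3.70%, and the amino acid enzymes 1.92 to 1.94% against at least 6.97%. This last gap was that of aspartate aminotransferase. The other enzyme of the group, hydroxylysine kinase, held 1.75% in testes, inside its embryo range of 0.0597 to 1.81%. The other named groups overlapped. For the named groups no sum was taken without aspartate aminotransferase, so their gaps are known on the full total only. Without it, the testes share of the cordon-bleu probe comp266794 alone was 0.974 times the highest embryo lane.

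Aspartate aminotransferase (comp293586), an enzyme that moves amino groups between amino acids and keto acids, showed the reverse. It had 870, 800 and 829 counts in testes, 6.11 to 6.504 times the background, and ranked 38th of the 43 targets. In embryos it was the leading target in 15 of 18 lanes, with 314 counts at the lowest, 1254 in the median and 2347 at the highest. Its raw counts in testes thus lay inside the embryo range, unlike those of nearly all other targets. Its share was 0.180% in testes (0.173 to 0.187%). In embryos the share was 62.3 to 72.8% at D1, 47.3 to 65.4% at D2, 16.8 to 65.2% at D2.5, 5.31 to 39.1% at D3, 10.1 to 50.7% at D4 and 19.6 to 74.0% at D5. The lowest embryo lane, D3 replicate 3, was 29.5-fold above testes.

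Whether a transcript took a larger or smaller part of the panel in testes was judged against all 18 embryo lanes. No target reached a testes share 4-fold above every embryo lane (0 of 43, 0%). At least 9 embryo lanes above background were asked for before a lower share was counted, which left 32 targets. Of these, 2 (6.25%) had a testes share at least 4-fold under the lowest embryo lane, aspartate aminotransferase and SYCP1 comp292635_9. By the looser criterion of lying outside the embryo range, 13 of 43 shares (30.2%) were above all 18 lanes and 3 of 43 (6.98%) below. Without D3 replicate 3 there were 5 below. With aspartate aminotransferase left out of the totals, 4 were above and 5 below. Those 4 were HFM1, comp293073_4, comp290695 and comp293931.

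HFM1 (comp293440), which the file describes as expressed mainly in germ cells, had the highest ratio of testes share to the highest embryo share among targets detected in an embryo lane. Its counts were 6015, 5879 and 5815 in testes, 42.9 to 46.2 times the background, and it ranked 18th in each lane. In embryos it had 1 count at the lowest, 6.5 in the median and 77 at the highest, above background in 8 of 18 lanes, and its best rank was 30.5. Testes were 76.7-fold above the highest embryo count, more than for any other target detected in an embryo lane. The share was 1.28% in testes (1.26 to 1.30%) against 0.0419, 0.249 and 0.576% in embryos, 2.21 times the highest lane, D4 lane a. This ratio was 1.95 to 2.91 under the other denominators, with background subtracted, and against stage means.

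**Figure D2:**
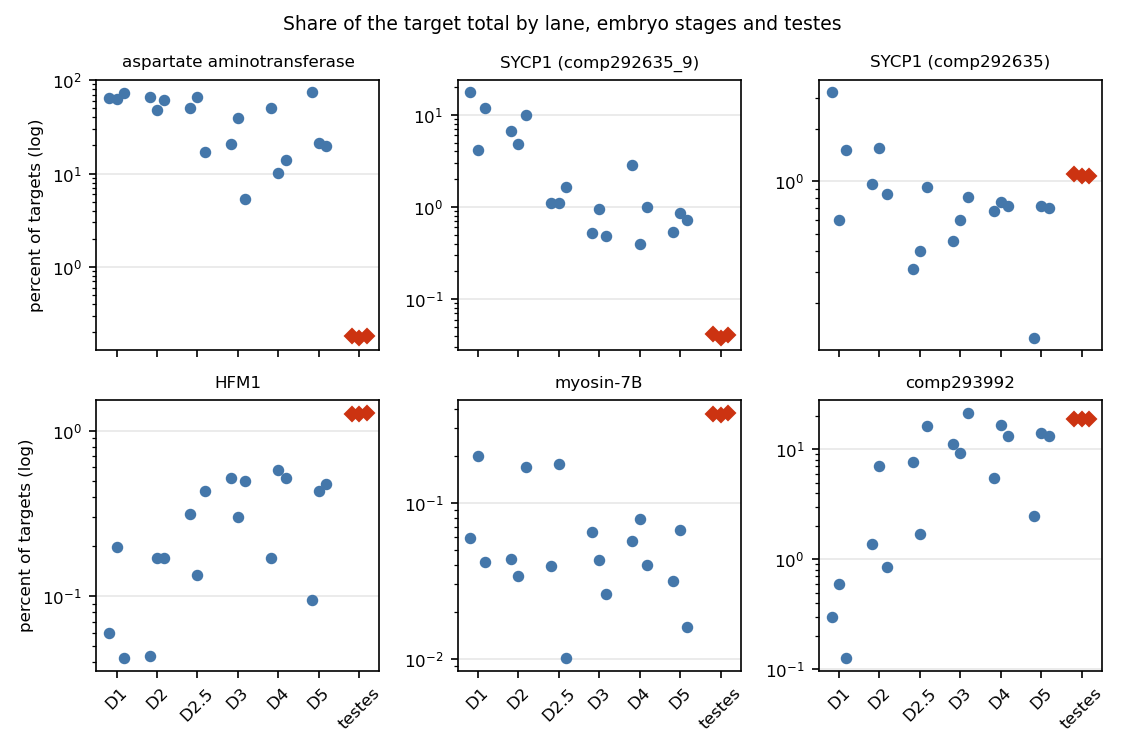
Share of 6 target probes in the target total of each lane, in percent on a log axis, for the 6 embryo stages (blue points, 1 for each lane) and testes (red diamonds, 3 technical lanes). The 3 diamonds of aspartate aminotransferase and of SYCP1 comp292635_9 lie below every embryo lane and those of HFM1 and myosin-7B above (the embryo points of myosin-7B are all below background), while SYCP1 comp292635 and comp293992 lie within the embryo range.

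Among the other meiotic probes, the 3 that are named for SYCP1 differed. comp292635 had 5231, 4947 and 4853 counts in testes, 40.1-fold above the highest embryo lane, and a share of 1.08% within the embryo range of 0.126 to 3.22%. comp292635_9 had 198, 174 and 184 counts in testes, only 1.36 to 1.48 times the background, against 8, 47.5 and 294 at the lowest, median and highest in embryos. Its share was 0.0401% in testes (0.0368 to 0.0436%). The lowest embryo share was 9.87-fold higher, at 0.396% in D4 lane a, and the highest was 17.6% in D1 replicate 1. Embryo shares of this probe were 4.17 to 17.6% at D1 and 4.80 to 9.85% at D2, and lay between 0.396 and 2.83% from D2.5 on. Its testes rank was 41 or 42 of 43, whereas it was second in 4 of the first 6 embryo lanes. comp288706 had 550, 503 and 539 counts in testes and 3 to 20 in embryos, where it was above background in 2 lanes. Its testes share of 0.115% lay at the lower end of the embryo range, 0.110 to 1.98%. Whether the 3 probes read parts or copies of 1 gene is not given in the file.

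Myosin-7B (comp292635_13, a motor protein of striated muscle by its name in the file) shares its identifier stem with a pair of the SYCP1 probes. It had 1760, 1691 and 1709 counts in testes, 13.02 times the background. No embryo lane was above background, with at most 7 counts, so testes were at least 74.2-fold higher, against the highest embryo background of 23.2 counts. It and comp262153 were the 2 targets detected in testes and in no embryo lane. comp262153 had 204, 212 and 196 counts in testes, 1.55 times the background, and these were 8.80-fold above the highest embryo background. The mean of the negative controls was itself 60.0 to 63.5 counts in testes and at most 8.13 in embryos. For comp262153, so near the testes background, the 8.80 is thus no fold of the transcript. The testes share of myosin-7B was 0.372% (0.362 to 0.382%), and above every embryo value, but those rest on counts below background, so no fold of the share is given. The background itself came to between 0.116% and 3.55% of the target total of an embryo lane. With the mean of the negative controls subtracted, myosin-7B passed the 4-fold rule for a higher share, over a highest embryo value of 0.25 counts, which is no measured level.

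EF1A_A and EF1A_B are probes for elongation factor 1 alpha, which brings aminoacyl-tRNA to the ribosome. EF1A_A had 19, 12 and 22 counts in testes, below background in all lanes, against 124 at the lowest, 486 in the median and 863 at the highest in embryos, always above background. EF1A_B was the opposite, with 240, 199 and 180 counts in testes, 1.33 to 1.79 times the background, and 1 to 8 counts in embryos, never above background. The highest embryo count of EF1A_B, 8, was that of D3 replicate 3. The groups did not overlap for either probe. For EF1A_B this was the usual case in raw counts. Of the 43 targets, 41 had a mean testes count above all 18 embryo lanes, and all 8 negative controls were higher in every testes lane. No other reference probe was, like EF1A_A, below every embryo lane. The sum of EF1A_A and EF1A_B thus rests on EF1A_B in testes and on EF1A_A in embryos.

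**Figure D3:**
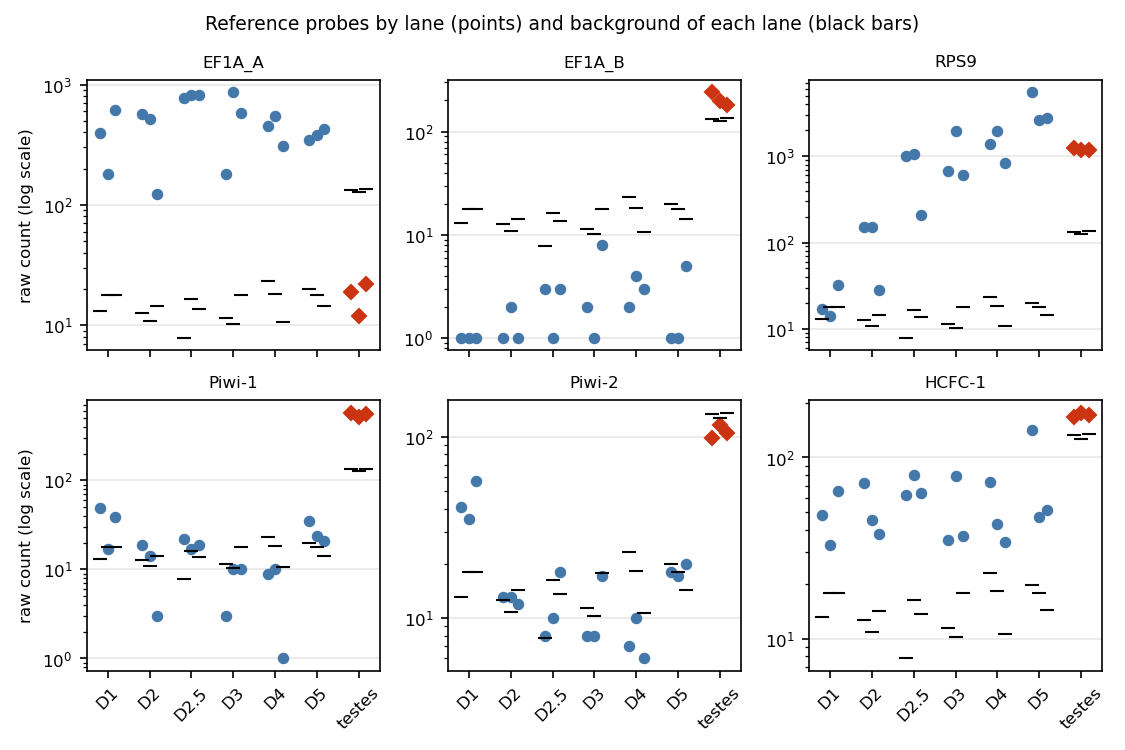
Raw counts of the 6 reference probes on log axes, for the embryo lanes (blue) and testes lanes (red), with black bars at the background of each lane. In testes EF1A_A and Piwi-2 lie below the bars and HCFC-1 just above them, and EF1A_B is above the bars in testes alone.

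Piwi-1 (PMZ_0008974) had 579, 521 and 565 counts in testes, 4.10 to 4.33 times the background. Embryo counts were 1, 17 and 49 at the lowest, median and highest, above background in 10 of 18 lanes, and at most 3.73 times it. Testes were 11.3-fold above the highest embryo lane in counts and 3.17-fold per count of HCFC-1. Piwi-2 (PMZ_0008779) had 98, 116 and 105 counts in testes, below background in all 3 lanes, and 6, 13 and 57 in embryos, above background in 8 lanes that include the 3 of D1. No level in testes can be given for Piwi-2 beyond that bound. HCFC-1 (PMZ_0004518), a cofactor of transcription and the cell cycle, had 167, 177 and 172 counts in testes, 1.25 to 1.39 times the background, and 33 to 141 in embryos, where it was 1.85 to 7.97 times the background. Ratios to HCFC-1 in testes thus rest on a probe near the floor. Ribosomal protein S9 (RPS9), of the small ribosomal subunit, had 1255, 1182 and 1188 counts in testes, inside the embryo range of 14 to 5518. Relative to 100 target counts, testes held 0.256 to 0.265 counts of RPS9, below the 1.01 to 174 of the embryo lanes. In this unit, which divides by the much larger testes target total, EF1A_A, HCFC-1 and Piwi-2 were below every embryo lane too. Piwi-1 and EF1A_B were not. Per count of HCFC-1, RPS9 was 6.68 to 7.51 in testes, inside the 0.354 to 56.7 of the embryo lanes.

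Ratios of probes within 1 lane need neither the RNA amount nor a reference. They also hold the efficiency of each probe, so they are ratios of counts and not of transcripts. Counts of HFM1 were 6.91, 7.35 and 7.01 times those of aspartate aminotransferase in testes, and the ratio was at most 0.0940 in embryos. For EF1A_B over EF1A_A only bounds can be given, with an undetected probe set at its lane's background. The ratio was at least 1.33 to 1.79 in the testes lanes and at most 0.115 in any embryo lane. SYCP1 comp292635 over comp292635_9 gave 26.4, 28.4 and 26.4 in testes. It was at most 1.91 in the 16 embryo lanes with comp292635_9 above background, and above 1 in 2 of them. Piwi-1 over Piwi-2 was at least 4.10 to 4.33 in the testes lanes and at most 2.75 in the 8 embryo lanes with Piwi-2 above background, and the other 10 lanes give no bound. The tissues did not overlap in these 4 pairs over the lanes that give a value or a bound. Such a gap was common among the pairs examined, for some of them over part of the embryo lanes only. Myosin-7B over SYCP1 comp292635_9 and SYCP1 comp292635 over comp288706 were apart too, the latter over 2 embryo lanes only. Neurofascin over the unannotated comp293325_41 gave 2.08 to 2.17 in testes and at most 1.625 in the 11 embryo lanes with comp293325_41 above background. In D3 replicate 1 only neurofascin was above background, so the ratio there was at least 1.93, with no upper bound. As counted it was 2.75 in that lane, above testes, and at most 3.17 over all embryo lanes. For this pair the gap thus holds over those 11 lanes only. The pair comp293073_4 over comp293073 overlapped, with 1.21 to 1.26 in testes and at most 1.22 in 12 embryo lanes. For the apoptosis inhibitor pair comp285297_12 over comp285297 the ratio was 10.6 to 10.8 in testes. It was 1.25 to 38.0 over all embryo lanes, and 12.9 to 21.1 in the 7 with both probes above background, each of them above testes. Over those 7 lanes this pair was thus apart as well, with the lower ratio in testes. The cordon-bleu pair comp266794 over comp287546 gave 1.73 to 1.75 in testes, inside the 0.900 to 3.29 of the 7 embryo lanes with both above background. The pairs were chosen with the values known.

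**Figure D4:**
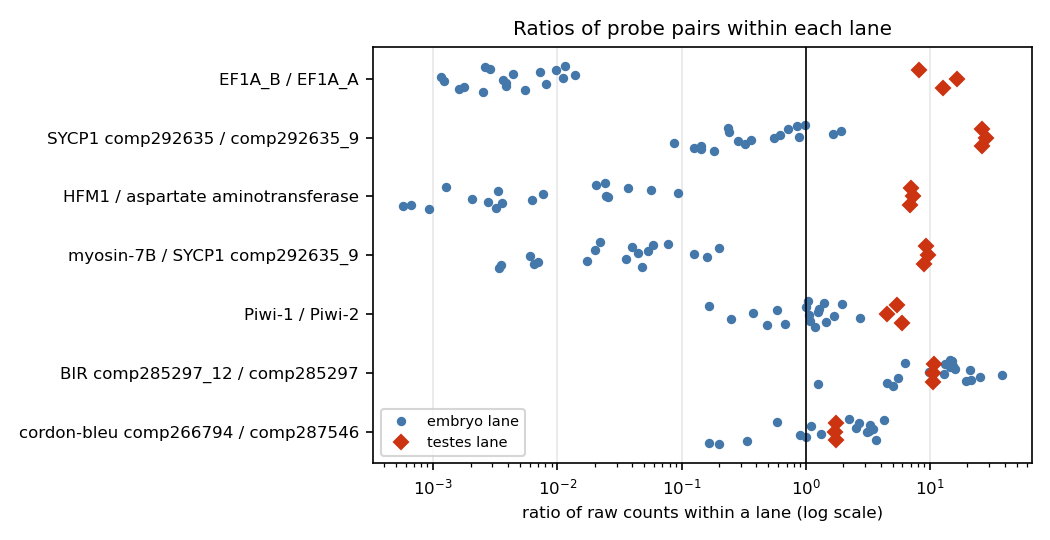
Ratio of raw counts of 7 probe pairs within each lane on a log axis, with blue points for 18 embryo lanes, red diamonds for 3 testes lanes and a black line at 1. Counts below background are drawn as they are. Both probes were above background in 12 embryo lanes for SYCP1, 8 for HFM1, and 7 each for Piwi, the apoptosis inhibitor and cordon-bleu. For EF1A and myosin-7B no embryo lane had both. The other embryo points, and the diamonds of EF1A and Piwi, are not measured ratios. As drawn, diamonds and points are apart for EF1A, SYCP1, HFM1, myosin-7B and Piwi, and mixed for the apoptosis inhibitor and cordon-bleu pairs. In the 7 embryo lanes with both apoptosis inhibitor probes above background, each point lies above the diamonds.

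Both apoptosis inhibitor probes (BIR) had testes shares within the embryo range. comp285297_12 had 35856, 34995 and 34535 counts in testes and 5, 113 and 1579 in embryos, and its 7.60% compares with an embryo median of 5.39% and a highest value of 10.2%. comp285297 had 3367, 3300 and 3210 counts, or 0.712%, against 0.0839 to 0.794%. The cordon-bleu probes (an actin-binding protein that the file annotates as an apoptosis inhibitor) had 7092, 6878 and 6695 counts for comp266794 and 4055, 3975 and 3826 for comp287546. The share of comp266794, 1.49%, was 1.16 times the highest embryo lane, or 0.974 times with aspartate aminotransferase left out of the totals. That of comp287546, 0.855%, lay within the range, under a count below background in D1 replicate 2.

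Regulators of the cell cycle and of chromatin took smaller shares in testes than in most embryo lanes. The MAD2L1-binding protein (comp280581), which acts on the spindle checkpoint, had 6136, 6062 and 5898 counts in testes and 12, 97 and 228 in embryos. Its testes share of 1.30% was under 17 of 18 embryo lanes, whose median was 2.98%. Protein phosphatase 1D (comp267762), a phosphatase of the DNA damage response, had 2535, 2365 and 2404 counts and a share of 0.527%, under 16 of 18 lanes. The trinucleotide repeat-containing gene (comp292626) had 3317, 3181 and 3063 counts and 0.689%, under 13 of 18 lanes. All 3 shares stayed inside the embryo range, and in raw counts testes were 26.5-, 18.4- and 14.8-fold above the highest embryo lane.

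The signalling and adhesion probes were WNT-5a, a secreted ligand, and the adhesion proteins protocadherin Fat 3 and neurofascin. WNT-5a (comp249676) had 3355, 3157 and 3169 counts in testes and 1, 13.5 and 180 in embryos, and its share of 0.698% was above 10 lanes and below 8. Such counts of lanes use the full target totals and include those in which the probe was below background. WNT-5a was above background in 10 embryo lanes, and the 8 with a larger share than testes were all among these. Protocadherin Fat 3 (comp284391) had 1613, 1610 and 1522 counts and 0.342%, below 11 of 18 lanes, and was above background in 10. Neurofascin (comp293325) had 7517, 7541 and 7043 counts and 1.59%, 1.10 times the highest lane, or 0.733 times with aspartate aminotransferase left out of the totals. Of the last named targets, hydroxylysine kinase (comp293109, an enzyme of lysine breakdown) had 8219, 8116 and 7900 counts and 1.75%, above 16 of 18 lanes. That share was 0.964 times the highest embryo lane, or 0.571 times with aspartate aminotransferase left out of the totals. The retinitis pigmentosa GTPase regulator (comp287366, a protein of cilia) had 2254, 2208 and 2097 counts and 0.473%, below 11 lanes. It was above background in 9 embryo lanes, and of these only D2.5 replicate 1 had a smaller share than testes, 0.391%. The leucine-rich repeat protein comp292779 had 3458, 3444 and 3238 counts and 0.731%, above 14 lanes. It was above background in 9 embryo lanes, among them the 4 with a larger share than testes. Its testes share was 0.736 times the highest embryo lane, or 0.207 times with aspartate aminotransferase left out of the totals. For 8 targets the highest embryo share came from D1 replicate 2, the lane with 504 target counts, and none of the 8 was above background there. At the bottom of the testes order, comp282841 had 214, 172 and 205 counts, 1.49 times the background. Its share of 0.0426% was below every embryo lane, but it was above background in 1 embryo lane only.

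The whole profile of testes was compared with each embryo lane over the 43 targets. The points share probes and their hybridisation efficiencies, so these correlations are descriptions. Pearson's r of log2 counts was −0.124, −0.196 and −0.105 in the D1 lanes and 0.254, 0.507 and −0.0505 in the D2 lanes. It was 0.514, 0.352 and 0.705 at D2.5, and 0.627, 0.612 and 0.845 at D3. It was 0.400, 0.807 and 0.725 at D4, and 0.316, 0.674 and 0.687 at D5 (numbered lanes first, then lanes a and b). The highest values were those of D3 replicate 3 and D4 lane a, with 15415 and 8847 target counts. D2.5 replicate 3, with 9961 counts, had a lower r than D4 lane b, with 2499. The lowest was that of D1 replicate 2, with 504. Each of the 3 D1 lanes lay below 0, and only 6, 3 and 7 of the 43 targets were above background in them. Without aspartate aminotransferase and comp292635_9 the D1 lanes gave 0.168, −0.0138 and 0.171. These 2 probes were the ones called lower in testes from the same lanes, so a higher r without them was built in. The median over the 18 lanes was then 0.774 in place of 0.511, and the highest was 0.935. Over only the probes above background in a lane, the median was 0.468 and the lowest −0.501, in D5 replicate 1. The D1 lanes and D2 replicate 3 had too few such probes for a value. The testes lanes correlated with each other at 0.9995 to 0.9998.

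**Figure D5:**
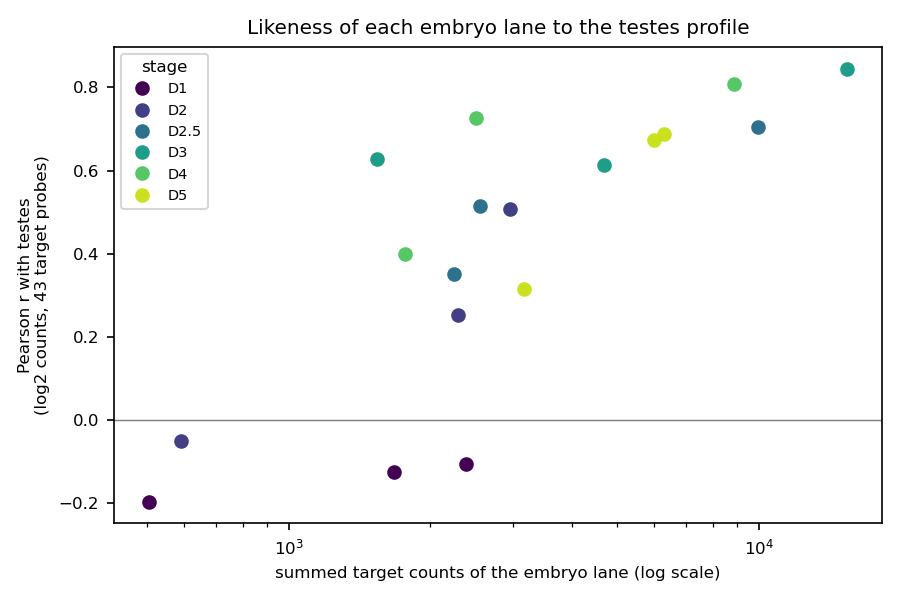
Pearson's r between the testes profile and each of 18 embryo lanes (log2 counts of 43 target probes) against the target total of that lane on a log axis, coloured by stage. D3 replicate 3 is highest at 0.845 with 15415 counts, and the D1 lanes lie below 0.

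In the 3 embryo lanes with the most target counts, most targets had a ratio to testes within 2-fold of the lane's median. In D3 replicate 3 a target had 31.0 counts for 1000 in testes in the median, with quartiles of 23.7 and 41.1, and 37 of 43 targets lay within 2-fold of the median. In D4 lane a the median was 17.1 (14.0 to 26.7) and in D2.5 replicate 3 it was 19.8 (14.0 to 28.9), with 36 targets each within 2-fold. In the other lanes from D2 on, 18 to 34 targets lay within 2-fold of their lane's median, and in the D1 lanes 7 to 14 did. D5 lanes a and b had 34 each, and D3 replicate 1, with 1545 target counts, had 30. Aspartate aminotransferase stood apart in D3 replicate 3, D4 lane a and D2.5 replicate 3, at 983, 1070 and 2010 counts for 1000 in testes. SYCP1 comp292635_9 did so too, at 405, 189 and 890. HFM1 and myosin-7B lay under the median there, with 77, 51 and 43 counts of HFM1 against 5903 in testes, and with no myosin-7B above background.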

How the data were processed

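Raw counts per probe and lane were used as deposited (whole numbers from the nCounter's lane files, per the file headers). The authors also deposited normalized signal values, whose recipe is not given in the sources used here and which served as an alternative only. Of the lanes, 17 carry a stage or tissue and a number that match a sample title. For 2 lanes of D4 and 2 of D5 the name holds the stage and a tag that matches no title. One tag is shared by a D4 and both D5 lanes, with a further number on the D5 lanes. They are called lane a and lane b in file order. The names begin with 3 different numbers that read as dates and were taken as 3 runs, and testes hold the last.

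Shares are counts over the summed counts of the 43 targets of a lane, and ranks start at 1 for the highest count. Ranks also hold each probe's efficiency. Background was mean + 2 SD of the negative controls. Calls used a 4-fold rule of size (Python 3.11.15, pandas 2.3.3, scipy 1.17.1). Named were the 10 leading and 5 last testes targets, calls, all annotated targets and the references. Members, lists and probe pairs were chosen with earlier results of these data known. Probe sequences and coordinates were not used here.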

Additional observations from a re-analysis of the deposited data

How the results depend on the processing

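The 2 shares lower in testes were the same 2 probes under every alternative denominator, background and left-out lane tried, and no left-out lane gave a 4-fold higher share. Subtracting the negative control mean added 1 such probe (myosin-7B, below background in every embryo lane), and a 2-fold rule added 1 (HFM1). The number of targets above background in testes stayed at 42 with a stricter background (3 SD) and with the highest negative control. The target total of testes over the highest embryo lane, 29.99-fold, was 18.3 with positive controls, 16.6 per summed reference count, 6.46 per count of HCFC-1 and 116 with the deposited normalized values, and 29.6 to 46.4 when single lanes were left out, with the highest value without D3 replicate 3. The correlation with embryo lanes had a median of 0.774 and a lowest value of −0.0138 without aspartate aminotransferase and comp292635_9, and a lowest value of −0.501 over probes above background. Per count of HCFC-1, EF1A_A in testes was 0.0420 of the lowest embryo lane, and 0.0881 with positive controls and 0 with background subtracted, at a count below background. In the same unit, the ratio to the highest embryo lane was 5.56 for EF1A_B (15.7 scaled by positive controls in place of HCFC-1, and no value with background subtracted, since all embryo lanes were then 0). EF1A_B was below background in all embryo lanes, so these are no measured folds, and with the background in place of its embryo counts the ratio to HCFC-1 was at least 2.22-fold higher. It was 3.17 for Piwi-1 (6.87 and 4.38) and 0.124 for RPS9 (0.191 and 0.160). Piwi-2 changed direction, from 0.582 to 1.29 with positive controls (0.377 with background subtracted), and was below background in testes. The cause of these shifts was not tested. The totals without aspartate aminotransferase, the correlation without 2 probes, the subtracted pair ratios, the bounds and the scalings of the count of 4-fold higher targets were chosen after seeing the data. No paired analysis was possible because the testes lanes are technical replicates of 1 sample and no result comes from a test between groups.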
